A study of Mus musculus with 14 samples.

Results

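Histone genes were followed across tumours grown in mice from LLC1 cells, a Lewis lung carcinoma line, after the hosts had been treated for 16 days. They were chosen by symbol: all genes of the deposited table whose mouse symbol begins with Hist1h, Hist2h, Hist3h, Hist4h, H1f, H2ac, H2bc, H3c or H4c, the last 5 followed by a number. The rule found 66 of the 21152 genes of the table. By protein type these were 6 linker histone H1 genes, 17 H2A, 18 H2B, 12 H3 and 13 H4 genes. By place they were 52 genes of the Hist1 cluster on chromosome 13, 9 of the Hist2 cluster on chromosome 3, 3 of the Hist3 cluster on chromosome 11, 1 named Hist4 on chromosome 6, and H1f0 on chromosome 15. A further 5 annotated genes fit the pattern without a row in the table, namely Hist1h1t, Hist1h2aa, Hist1h2al, Hist1h2ba and Hist2h2aa2. The family was selected on a measured value, because 1 of its members, Hist1h2aj, stood near an end of the main axis of variation between the libraries. That gene is therefore described without a test.

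The 4 groups of LLC1 tumour libraries were vehicle (DMSO, 4 libraries), MYCi975 (50 mg/kg, 4 libraries), TMP195 (50 mg/kg, 3 libraries) and the combination of both agents (3 libraries, doses within it not given in the sources used here). MYCi975 is a small molecule made to inhibit MYC, a transcription factor of growth genes, while TMP195 blocks the class IIa histone deacetylases. The series' text asks which transcriptional changes these treatments bring about in vivo. The labels call the RNA source an enriched tumour population and the design text calls it a bulk suspension of tumour cells. The sources used here give neither strain, sex and age of the mice nor whether each library came from its own animal. All p-values thus measure spread among these 14 libraries, part of which may be technical.

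Histones package DNA into nucleosomes. H3 and H4 form the central tetramer, H2A and H2B join it as dimers, and H1 binds the linker DNA. Most genes of the clusters are replication-dependent: they are transcribed in S phase under the coactivator NPAT, and their mRNAs end in a stem-loop bound by SLBP and carry no poly(A) tail. Each protein is encoded by many near-identical copies. Variants such as H2A.Z and H3.3 are also made outside S phase, from genes with introns and polyadenylated mRNAs. The symbol rule does not take them in. H1f0 encodes H1.0, a linker histone of slowly dividing and differentiated cells.

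The 3′ stem-loop is the feature that marks these genes as a family at the RNA level, and 4 of its forms are shown with 5 bases on either side, from GENCODE mouse release M21 (GRCm38). The capitals mark the 16 bases of the stem-loop.
Hist1h2ab: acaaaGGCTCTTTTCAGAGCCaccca
Hist1h3c: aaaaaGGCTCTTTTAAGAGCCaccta
Hist1h4h: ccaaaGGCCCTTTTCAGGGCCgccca
Hist1h4b: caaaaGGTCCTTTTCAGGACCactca
The histone stem-loop, searched on the sense strand, was found in the M21 gene models of 44 of the 66 members (66.7%) and in 9 of the 20198 other genes of the table that have a model (0.0446%). The form shown for Hist1h2ab stood in 25 members of the H1, H2A, H2B and H3 types and in no H4 gene. The form shown for Hist1h4h stood in 7 members, all of them H4 genes. H1f0 held none, and 22 members had the stem-loop within 100 bases of the end of their model. Gene models that stop short of the 3′ end cannot show it.

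Hist1h2aj, named H2ac14 by RefSeq, carried the values for which the family was picked, and its sequence bears on how those values can be read. GENCODE M21 lists it as an unprocessed pseudogene with a model of 352 bases. Bases 22 to 352 of that model, 331 in a row, were identical to bases 33 to 363 of Hist1h2ai, another H2A gene. The first 60 bases of Hist1h2aj and the aligned bases 12 to 71 of Hist1h2ai are shown, from the M21 transcripts. In Hist1h2aj the capitals mark the 21 bases before the identical run, and in Hist1h2ai they mark the 10 bases that differ.
Hist1h2aj: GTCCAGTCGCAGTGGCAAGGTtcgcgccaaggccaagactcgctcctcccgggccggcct
Hist1h2ai: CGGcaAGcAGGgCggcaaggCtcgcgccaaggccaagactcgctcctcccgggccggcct
Counted from the first base of the Hist1h2aj model, with its base first, the last of the 10 differences was T21C. Of the 322 words of 31 bases in the model, 6.5% occurred in no other annotated transcript, and 93.5% were shared with Hist1h2ai. Reads from the shared run can be given to either gene by the authors' quantification, so values of Hist1h2aj alone are uncertain.

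The values are the authors' normalised expression on a log2 scale after a variance-stabilising transformation, on which a gene with no reads stands at 4.047. Read depth is unknown. The number of genes at that lowest value ran from 880 to 2954 per library. MYCi975 replicate 2 stood apart from the rest: it had the most genes at the lowest value, the highest Ptprc, the pan-leukocyte antigen gene (12.07, against 9.65 to 11.45 elsewhere), and the lowest limma library weight (0.362). All 11 leukocyte markers examined were above the lowest value in every library, so leukocyte RNA was present throughout. Most counts and medians over lists of genes that rest on MYCi975 replicate 2 are given with and without it. Values by histone type that rest on it, and correlations among members, are given only with it.

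Hist1h2aj was either at the lowest value or well above it. It stood at 7.04, 4.05, 7.96 and 8.40 in vehicle replicates 1 to 4, at 4.05, 4.05, 7.17 and 7.70 in MYCi975, at 7.70, 4.05 and 7.10 in TMP195, and at 8.60, 7.75 and 8.44 in the combination. The lowest value of the table thus occurred in 4 libraries, which belonged to 3 groups, and in no combination library. The combination values lay above all values of MYCi975 and of TMP195 and overlapped those of vehicle. Group means were 6.86 ± 1.96 (SD, n = 4) for vehicle, 5.74 ± 1.97 (n = 4) for MYCi975, 6.28 ± 1.96 (n = 3) for TMP195 and 8.26 ± 0.45 (n = 3) for the combination. Because these values chose the gene, they are a description.

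Its near copy Hist1h2ai did not share this pattern. Hist1h2ai stood at 10.02 in vehicle replicate 2, 9.68 and 9.35 in MYCi975 replicates 1 and 2, and 10.01 in TMP195 replicate 2, the 4 libraries in which Hist1h2aj was at the lowest value. In the other 10 libraries Hist1h2ai ranged from 9.03 to 10.05. When the linear values of all Hist1 H2A genes were summed, Hist1h2aj included, the log2 total was 11.15 ± 0.26 in vehicle, 10.86 ± 0.26 in MYCi975, 10.84 ± 0.28 in TMP195 and 10.97 ± 0.19 in the combination (SD, n = 4, 4, 3 and 3). The total of the combination therefore lay 0.18 below vehicle, whereas Hist1h2aj alone lay 1.40 above it.

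**Figure D1:**
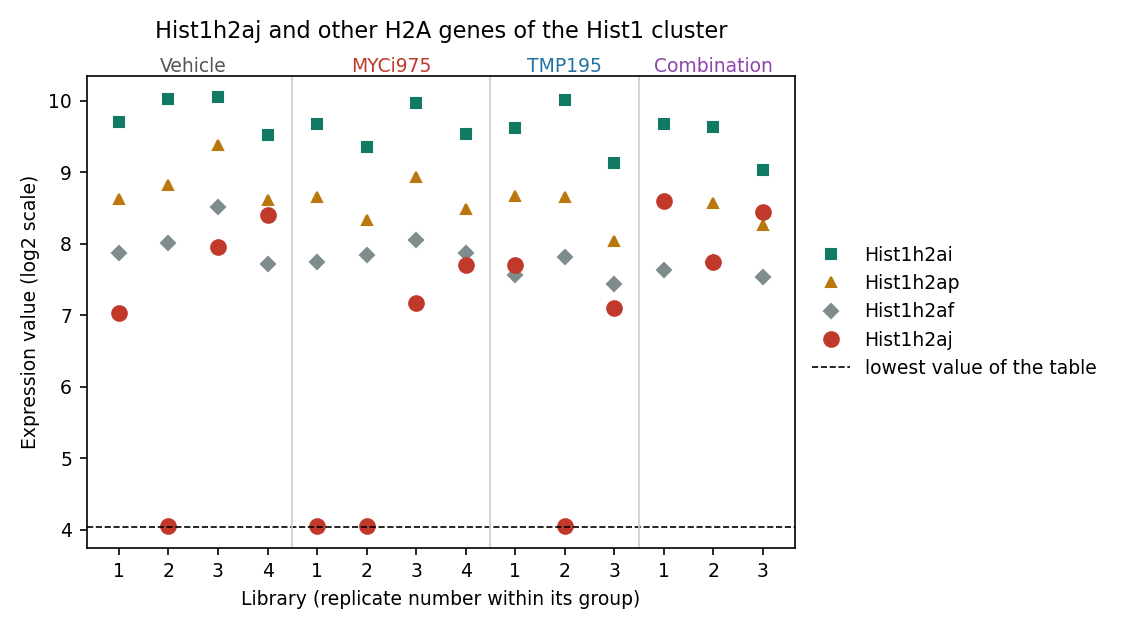
Expression values (log2 scale) of Hist1h2aj and of 3 other H2A genes of the Hist1 cluster in each of the 14 libraries, by group and replicate, with the lowest value of the table as a dashed line. Hist1h2aj is on that line in 4 libraries while the other 3 genes stay above 7 in all of them, and in combination replicate 2 its point covers that of Hist1h2af.

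Shared words were also found for Hist2h3c1, an H3 gene, and Gm20634, an annotated model that holds 100% of the 31-base words of Hist2h3c1. Hist2h3c1 was at the lowest value in 13 libraries and at 5.35 in MYCi975 replicate 3. In that same library Gm20634 stood at 4.74, against 5.55 to 6.15 in the other 13. For Hist1h2ai, libraries with Hist1h2aj at the lowest value (9.35 to 10.02) overlapped the others (9.03 to 10.05). Where above the lowest value, Hist1h2aj made up only 5.51% to 19% of the summed linear Hist1 H2A values. A move of reads between the 2 genes would thus shift Hist1h2ai little, and it was not tested. Hist1h2ao, with 6.2% of its words its own, was likewise at the lowest value in 13 libraries and at 5.02 in vehicle replicate 1. Of the 66 members, 40 had under 50% words of their own and only H1f0 had 100%. Values of single members other than H1f0 thus carry this limit to differing degrees.

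Of the 66 members, 58 passed the filter on low values (mean over all libraries more than 1 above the lowest value) and were tested: 6 H1, 14 H2A, 15 H2B, 11 H3 and 12 H4 genes. The 8 others were Hist1h2ad, Hist1h2ao, Hist2h2ab, Hist1h2bq, Hist3h2ba, Hist3h2bb-ps, Hist2h3c1 and Hist1h4m, each at the lowest value in at least 1 library and none above 5.77 in any. Hist1h2aj was the only tested member at the lowest value anywhere. Its SD over the 14 libraries was 1.82, rank 9 of the 13711 genes tested, and its range exceeded 2, which that of no other tested member did. The next was Hist1h2ah, another H2A gene with few words of its own (8.8%), at an SD of 0.54. The median SD of the tested members was 0.26, close to the 0.24 of all genes tested.

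The main axis of variation between libraries was a principal component with 28.7% of the variance. MYCi975 replicate 2 lay farthest out on it, with a score of -52.7 against -21.9 to 26.2 in the other libraries. The axis thus rests largely on that library. Hist1h2aj had the second largest positive loading on it (0.0450, rank 2). The next member was Hist1h2bf, an H2B gene, at rank 133 with a loading of 0.0165. Of the 58 tested members 54 had positive loadings (93.1%, against 52.3% of all genes tested), with a median rank of 2801. Only 2 members were among the top 137 genes. These loadings are what the family was picked from and support nothing.

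The tested histone genes varied together from library to library. Over the 14 libraries the correlation between 2 members had a median of 0.40 and was above 0 in 90.5% of the 1653 pairs, against a median of -0.002 and 49.8% over all pairs of tested genes. Within a type the median was highest for H2B (0.57) and H4 (0.53), followed by H1 (0.45), H3 (0.41) and H2A (0.30). Pairs of different types had a median of 0.38. Members share reads, libraries and depth, so these correlations are a description. They include MYCi975 replicate 2, which held the lowest value of many members, and were not worked out without it.

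Hist1h4n, an H4 gene, and Hist2h3b, an H3 gene, followed the other members most closely, with correlations to the mean of the rest of 0.92 and 0.91. H1f0 did not follow it (-0.03), nor did Hist2h2be (0.09), the H2B gene known from olfactory neurons, or Hist1h2aj (0.12). H1f0 stood at 8.93, 8.86, 9.14 and 9.36 in vehicle, and ran from 8.84 to 9.17 in MYCi975, 8.88 to 9.08 in TMP195 and 8.89 to 9.36 in the combination. Its groups overlapped, with means of 9.07, 9.02, 8.95 and 9.13. The combination minus vehicle difference of H1f0 was 0.05 (95% interval -0.26 to 0.37, adjusted p = 0.995, limma).

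**Figure D2:**
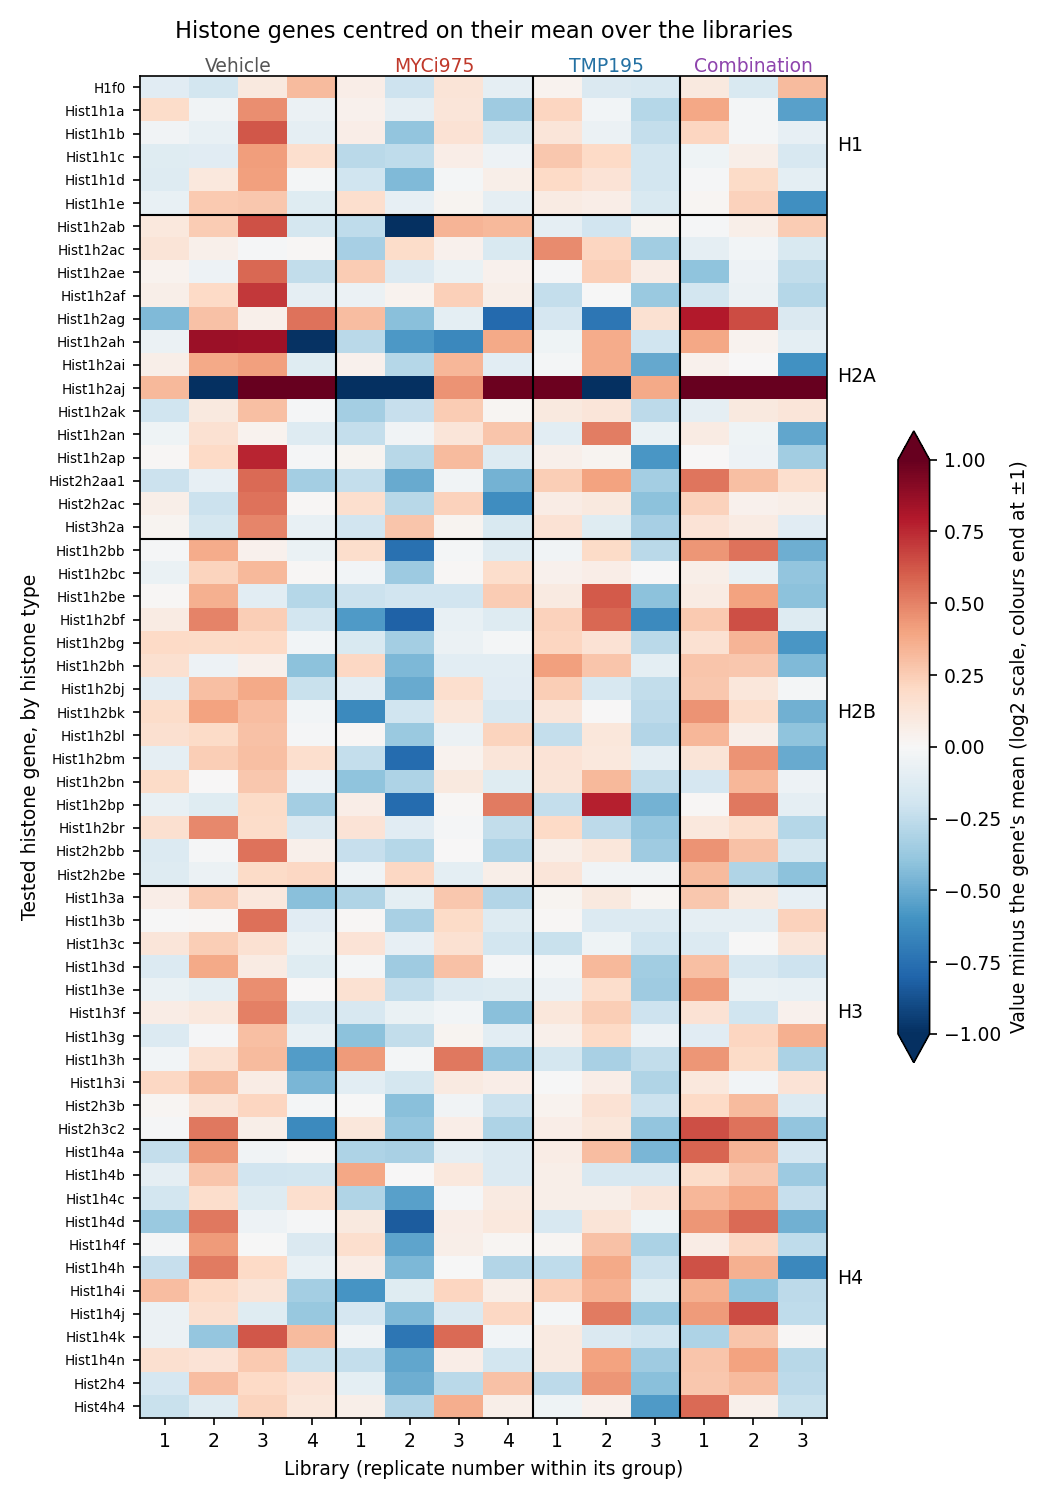
Values of the 58 tested histone genes, each centred on its mean over the libraries (colour, log2 scale, ends at ±1), in the 14 libraries (columns, by group) and by histone type (rows). Vehicle replicate 3 is mostly red and MYCi975 replicate 2, TMP195 replicate 3 and combination replicate 3 are mostly blue, while Hist1h2aj shows the largest departures.

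Single libraries rather than groups held the extremes of the family. Without Hist1h2aj, the mean of the centred values was highest in vehicle replicate 3 (0.27) and lowest in MYCi975 replicate 2 (-0.33). Vehicle replicate 3 held the highest value of 21 of these 57 genes, and MYCi975 replicate 2 the lowest value of 21. Combination replicate 3 held the lowest value of 11 genes, while combination replicates 1 and 2 held the highest of 9 each. TMP195 replicate 3 held the lowest of 9.

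By group, the mean stood at -0.02, 0.17, 0.27 and -0.11 in vehicle, at -0.08, -0.33, 0.06 and -0.07 in MYCi975, at 0.04, 0.14 and -0.24 in TMP195, and at 0.20, 0.17 and -0.20 in the combination. All groups overlapped. The group means were 0.08 ± 0.17 (SD, n = 4) in vehicle, -0.10 ± 0.16 (n = 4) in MYCi975, -0.02 ± 0.20 (n = 3) in TMP195 and 0.05 ± 0.22 (n = 3) in the combination. The difference of MYCi975 from vehicle, -0.18, was about the size of the SD within groups, and those of TMP195 (-0.10) and the combination (-0.02) were below it. As the tissue is bulk, fewer cells that express histone genes and less histone RNA per cell cannot be told apart.

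**Figure D3:**
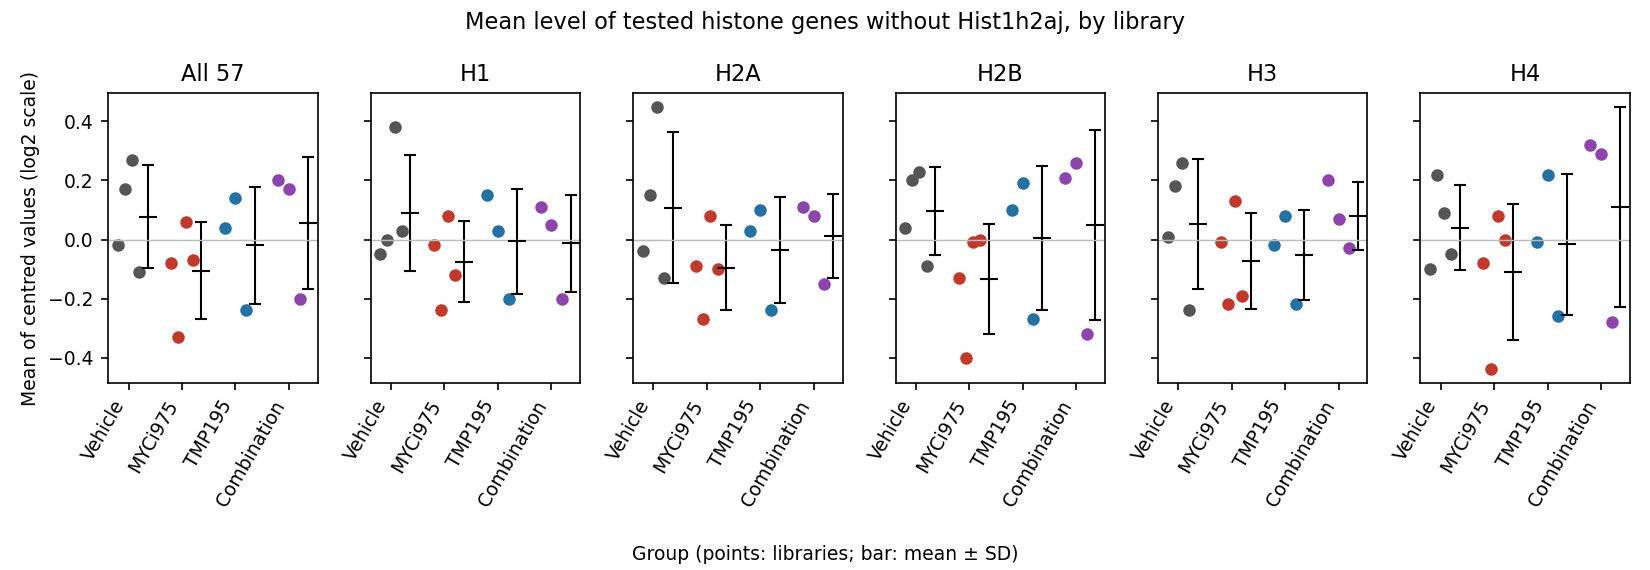
Mean of the centred values (log2 scale) of the 57 tested histone genes without Hist1h2aj, and of each histone type, with 1 point per library and a bar for the group mean ± SD. Groups overlap in every panel, and H4 genes have the widest spread, from -0.44 to 0.32.

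No member passed the threshold of adjusted p under 0.05 in any of the 6 comparisons (limma, Benjamini-Hochberg over 13711 genes), and no gene of the table did (0% called in each). Counts at an unadjusted p under 0.05 are therefore set beside the share of all tested genes that reached it in the same direction, and are taken over the 57 tested members other than Hist1h2aj, whose own p is not used. Medians and counts of directions include Hist1h2aj, and without it each of the 6 medians moved by at most 0.01. Members are related genes of the same libraries, so the counts of directions are not independent observations.

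In MYCi975 against vehicle, 53 of the 58 members had the lower mean in MYCi975 and 5 the higher, with a median difference of -0.19, while 48.3% of all tested genes were lower and their median was 0.007. All 6 H1 genes were lower (median -0.20), as were 13 of 14 H2A (-0.21), 14 of 15 H2B (-0.23), 10 of 11 H3 (-0.11) and 10 of 12 H4 genes (-0.18). At an unadjusted p under 0.05, 2 members were lower (3.51%, against 1.49% of all genes) and 0 higher (1.85% of all genes). Without MYCi975 replicate 2 the median was -0.11, with 45 members lower and none at an unadjusted p under 0.05 (1.28% of all genes). With each of the 14 libraries left out in turn this count ran from 0 to 4. It was also 0 when MYCi975 replicate 1, TMP195 replicate 1 or vehicle replicate 2 or 3 was left out (1.42%, 1.31%, 1.29% and 1.65% of all genes). Without vehicle replicate 4 it was 4 (1.42% of all genes).

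Those 2 members were the H2B genes Hist1h2bf and Hist1h2bk. Hist1h2bf stood at 7.72, 8.13, 7.88 and 7.45 in vehicle and at 7.07, 6.83, 7.56 and 7.51 in MYCi975. The 2 groups of Hist1h2bf overlapped only at vehicle replicate 4, and the difference was -0.55 ± 0.25 (SE; adjusted p = 0.999, limma). Hist1h2bk stood at 7.13, 7.35, 7.26 and 6.92 in vehicle and at 6.31, 6.75, 7.06 and 6.79 in MYCi975, a difference of -0.44 ± 0.20 (adjusted p = 0.999, limma). The smallest p among the members with a higher mean belonged to Hist1h3h, an H3 gene (0.16, 95% interval -0.33 to 0.66), and Hist1h4b, an H4 gene (0.14, -0.23 to 0.50).

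In TMP195 against vehicle, 45 members were lower and 13 higher, with a median of -0.10 (all genes 0.004). At an unadjusted p under 0.05, 1 member was lower (1.75%, against 1.31% of all genes) and 0 higher (1.47% of all genes). That member was Hist1h2af, an H2A gene, which stood at 7.87, 8.01, 8.52 and 7.72 in vehicle and at 7.57, 7.81 and 7.44 in TMP195. Its difference was -0.42 ± 0.17 (SE; adjusted p = 1, limma), and the groups overlapped. Hist1h2ap, an H2A gene of the same cluster, differed by -0.41 (95% interval -0.85 to 0.04). Hist1h2bh, an H2B gene, had the smallest p among those with a higher mean (0.26, -0.20 to 0.72). Without TMP195 replicate 3 the median was -0.01, with 33 of 59 tested members lower and none at that level (2.01% of all genes). The count was also 0 without vehicle replicate 3 (1.23% of all genes) and reached 3 without vehicle replicate 4 (1.09% of all genes).

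In the combination against vehicle, members were split, with 31 lower and 27 higher and a median of -0.02 (all genes -0.002). By type, 5 of 6 H1 and 10 of 14 H2A genes were lower, with medians of -0.10 and -0.08, whereas 7 of 11 H3 and 8 of 12 H4 genes were higher, with medians of 0.03 and 0.06. H2B genes were 8 lower and 7 higher. At an unadjusted p under 0.05, 1 member was lower (1.75%, against 1.35% of all genes) and 0 higher (2.08% of all genes). Single libraries turned this split. Without vehicle replicate 4, 42 members were lower and 16 higher (median -0.07), with 8 of 11 H3 and 6 of 12 H4 genes lower and 2 members lower at that level (1.42% of all genes). Without combination replicate 3, 20 were lower and 38 higher (median 0.05), with 7 of 14 H2A genes lower and 2 members higher at that level (2.05% of all genes). With each other vehicle or combination library left out, 22 to 40 were lower.

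The member with the smallest p was again Hist1h2af, at 7.63, 7.75 and 7.53 in the combination (difference -0.39, 95% interval -0.75 to -0.02, adjusted p = 0.992, limma). This comparison shares its vehicle libraries with the previous one. Within the other types the smallest p belonged to Hist1h1e, a somatic H1 gene (-0.20, -0.58 to 0.17), Hist1h2bc of H2B (-0.26, -0.59 to 0.07), Hist2h3c2 of H3 (0.28, -0.31 to 0.88) and Hist1h4j of H4 (0.38, -0.14 to 0.90). Hist1h4j stood at 6.67, 6.89 and 5.99 in the combination and at 6.18, 6.40, 6.12 and 5.86 in vehicle. Combination replicate 3 lay within the vehicle range of Hist1h4j while the other 2 lay above it.

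In the combination against MYCi975 alone, 46 members were higher and 12 lower, with a median of 0.14 (all genes 0.001). At an unadjusted p under 0.05, 4 of the 57 members other than Hist1h2aj were higher (7.02%, against 3.14% of all genes) and 0 lower (5.03% of all genes). They were Hist2h2aa1, Hist1h2bf, Hist1h2ag and Hist1h4a, of which Hist1h4a was added after its value was seen. Without MYCi975 replicate 2 the median was 0.06, with 39 members higher and 1 at an unadjusted p under 0.05 (1.96% of all genes). Without combination replicate 3 the median was 0.25, with 50 higher and 16 at an unadjusted p under 0.05 (3.2% of all genes). Without combination replicate 1, 2 members were higher at that level (1.61% of all genes), without combination replicate 2 there was 1 (3.35%), and without MYCi975 replicate 1 there were 3 (2.99%).

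Hist2h2aa1, an H2A gene of the Hist2 cluster, stood at 11.08, 10.84 and 10.71 in the combination and at 10.30, 10.04, 10.51 and 10.07 in MYCi975. These groups of Hist2h2aa1 did not overlap, and the difference was 0.65 ± 0.22 (SE; adjusted p = 0.611, limma). Its vehicle libraries, at 10.33, 10.46, 11.11 and 10.20, spanned both. Only 10.3% of its 31-base words were its own, and Hist2h2aa2, its annotated copy, has no row in the table.

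Hist1h2bf stood at 7.90, 8.28 and 7.51 in the combination, which met the MYCi975 values only at replicate 3 (difference 0.66, 95% interval 0.07 to 1.24, adjusted p = 0.611, limma). Hist1h2ag, an H2A gene, stood at 6.84, 6.70 and 5.91 in the combination and at 6.36, 5.63, 5.95 and 5.27 in MYCi975, overlapping groups (0.68, 0.03 to 1.32, adjusted p = 0.611, limma). Hist1h4a, an H4 gene, stood at 6.86, 6.62 and 6.11 in the combination and at 5.97, 5.95, 6.19 and 6.14 in MYCi975 (0.47, 0.00 to 0.93, adjusted p = 0.611, limma). In all of these genes combination replicate 3 was the lowest of the combination libraries. Among members with a lower mean the smallest p belonged to Hist1h2af (-0.24, -0.61 to 0.12) and Hist1h2ae (-0.26, -0.65 to 0.14), both H2A genes.

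In the combination against TMP195 alone, 40 members were higher and 18 lower, with a median of 0.10 (all genes 0.006). None had an unadjusted p under 0.05 in either direction (1.66% of all genes were higher and 2.74% lower at that level). Leaving out TMP195 replicate 3 brought the median to 0.02, with 32 of 59 higher. Leaving out combination replicate 3 brought it to 0.19, with 48 higher and 3 of them at an unadjusted p under 0.05 (1.85% of all genes). Hist1h2ag had the smallest p of the members tested (0.68, 95% interval -0.02 to 1.37). Hist1h2ae (-0.33, -0.76 to 0.09) and Hist1h2an (-0.28, -0.72 to 0.16) had the smallest p among those with a lower mean.

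The interaction asks whether the combination departs from the sum of both single effects, and is the combination minus TMP195 difference less the MYCi975 minus vehicle difference. It was above 0 in 49 of 58 members, with a median of 0.26 (all genes 0.001), and above 0 in 11 of 11 H3 genes. At an unadjusted p under 0.05, 2 members were above 0 (3.51%, against 1.74% of all genes) and 0 below (3.05% of all genes). These were Hist1h2ag (1.04, 95% interval 0.12 to 1.95, adjusted p = 0.911, limma) and Hist2h2bb, an H2B gene (0.56, 0.00 to 1.12, adjusted p = 0.911, limma). Without MYCi975 replicate 2 the median was 0.17, with 44 members above 0 and 1 at an unadjusted p under 0.05 (1.36% of all genes). Without combination replicate 3 it was 0.38, with 55 above 0 and 10 at that level (1.88% of all genes). Without combination replicate 1, combination replicate 2 or MYCi975 replicate 4 there were 0 at that level (1.05%, 1.77% and 2.22% of all genes). Without TMP195 replicate 2 there were 4 (1.42% of all genes).

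**Figure D4:**
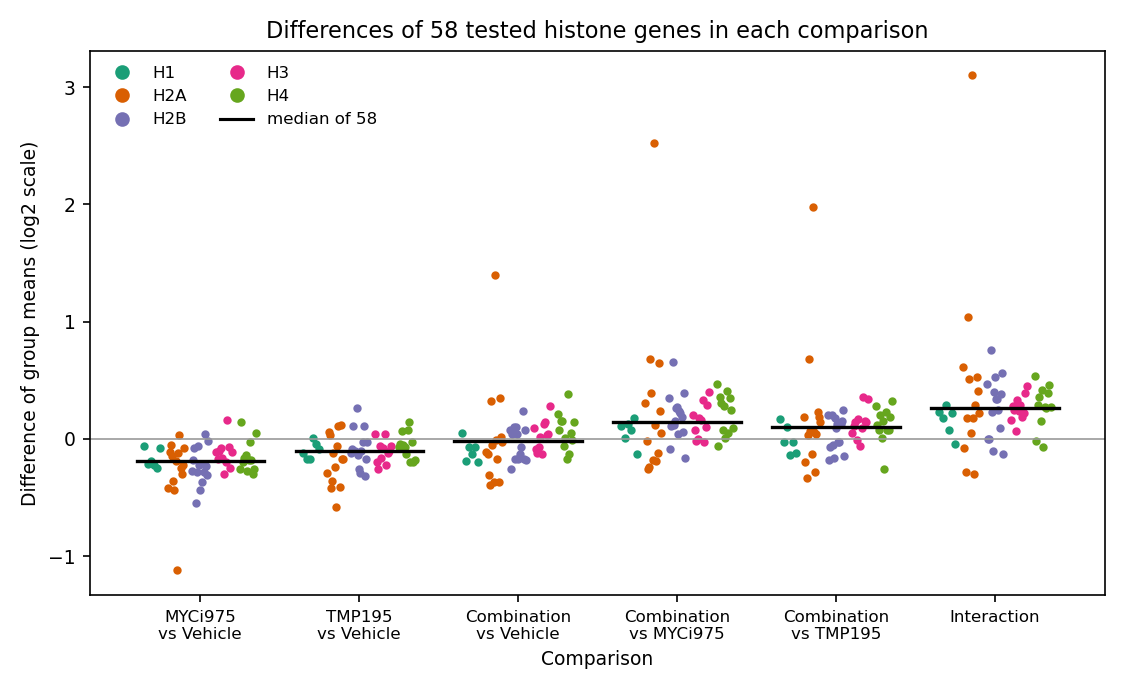
Difference of group means (log2 scale) of the 58 tested histone genes in each of the 6 comparisons, coloured by histone type, with the median as a black line. The medians run from -0.19 for MYCi975 against vehicle to 0.26 for the interaction, and the point farthest from 0 in each comparison is Hist1h2aj.

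Markers of leukocytes were set beside the histone genes, and none of them passed the threshold in any comparison. Their list mean ranged from -0.29 to 0.27 in vehicle, -0.29 to 1.05 in MYCi975, -0.18 to 0.69 in TMP195 and -0.77 to -0.29 in the combination. In MYCi975 against vehicle 11 of 11 leukocyte markers were higher (median 0.21), whereas without MYCi975 replicate 2 only 2 were higher and 9 lower (-0.09). In the combination against vehicle 11 of 11 were lower (-0.49), beside a histone median of -0.02. In the combination against MYCi975 11 of 11 were lower (-0.70), 8 of them at an unadjusted p under 0.05 (5.03% of all genes). Without MYCi975 replicate 2 again 11 were lower (-0.40), 3 of them at that level (2.41% of all genes). The interaction was below 0 in 11 of 11 (-0.99) and in 7 of 7 neutrophil markers (-1.21), at -0.64 and -0.95 without MYCi975 replicate 2. Over the 14 libraries the histone mean had a correlation of -0.63 with Ptprc, which was -0.43 without MYCi975 replicate 2 and -0.16 when the 2 libraries with the most extreme Ptprc were left out. The part of leukocyte RNA in the histone differences was not tested.

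Genes of the cell cycle were examined beside the histone genes because replication-dependent histone mRNA is made in S phase. Of 52 DNA replication and S phase genes, 34 were lower in MYCi975 than in vehicle (median -0.08), 44 were lower in TMP195 (-0.14) and 34 in the combination (-0.03), with 3, 4 and 1 lower at an unadjusted p under 0.05 (1.49%, 1.31% and 1.35% of all genes). The interaction was above 0 in 43 of the 52 (median 0.22) and in 25 of 28 G2 and mitosis genes (0.23). Of 28 G2 and mitosis genes, 23 were lower in MYCi975 than in vehicle (-0.07). Without MYCi975 replicate 2, 29 of the 52 replication genes (-0.02) and 14 of the 28 G2 and mitosis genes (0.02) were lower in MYCi975 than in vehicle, with 0 of either lower at an unadjusted p under 0.05. The interaction was then above 0 in 41 (0.18) and 21 (0.18) of them. The replication clamp gene Pcna stood at 9.57 ± 0.29 in vehicle and 9.66 ± 0.14 in MYCi975, and the proliferation marker Mki67 at 11.10 ± 0.16 and 11.04 ± 0.17 (SD, n = 4 each).

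The histone mean had a correlation of 0.66 with the mean of the G2 and mitosis genes and of 0.46 with that of the replication genes over the 14 libraries. Without MYCi975 replicate 2 these were 0.52 and 0.30, and they were 0.35 and 0.73 once the 2 most extreme libraries of each list mean were dropped. TMP195 replicate 2 had the lowest mean of the replication genes (-0.18) beside a histone mean of 0.14. The points share libraries and depth, and no test was made. A list of RNAs that also lack poly(A) tails (11 tested genes, among them the small nuclear and small nucleolar RNA genes) had a correlation of 0.08 with the histone mean.

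**Figure D5:**
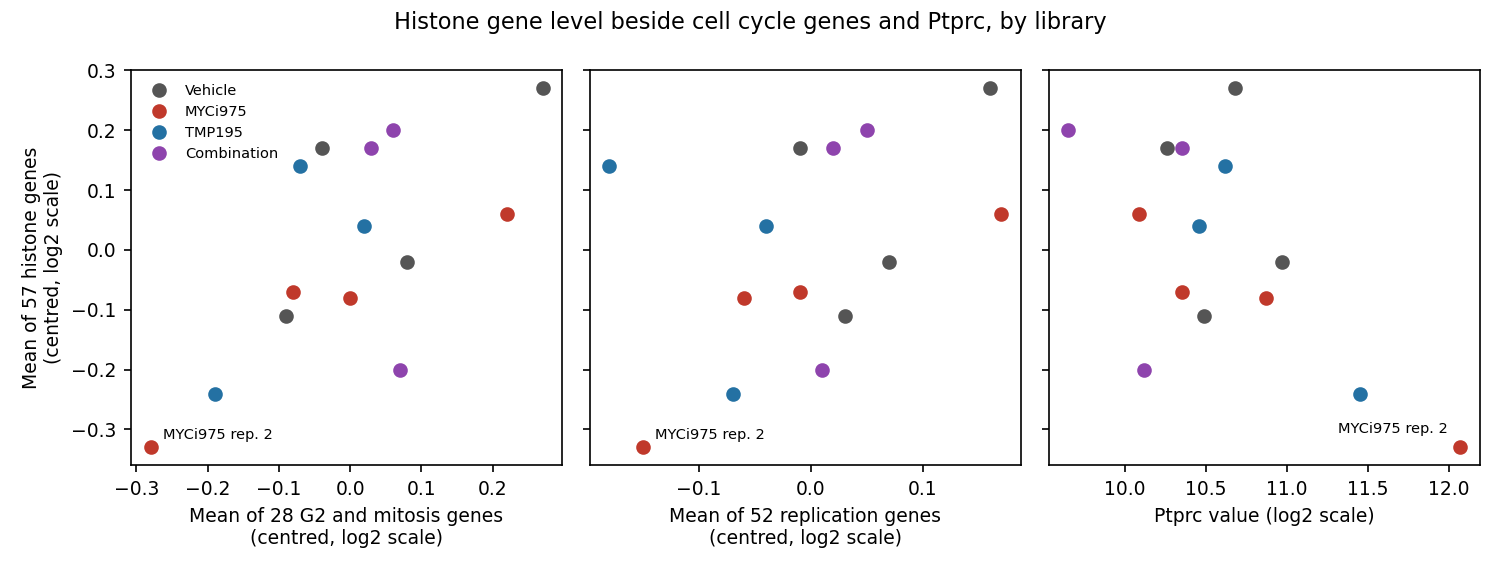
Mean of 57 tested histone genes (vertical, centred, log2 scale) in each library against the mean of 28 G2 and mitosis genes, the mean of 52 replication genes and the Ptprc value (log2 scale), coloured by group. MYCi975 replicate 2 is lowest on the vertical axis, lowest for the G2 and mitosis genes and highest for Ptprc.

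The machinery that makes histone mRNA gave no member past the threshold either. Of 18 tested genes of histone transcription and mRNA processing, 12 were higher in MYCi975 than in vehicle (median 0.09, and 12 with 0.03 without MYCi975 replicate 2) and 10 in the combination (0.01), none at an unadjusted p under 0.05. Slbp, which encodes the stem-loop binding protein, stood at 8.13 ± 0.05 in vehicle, 8.38 ± 0.32 in MYCi975, 7.92 ± 0.17 in TMP195 and 8.15 ± 0.13 in the combination (SD, n = 4, 4, 3 and 3). The combination minus vehicle difference of Slbp was 0.01 (95% interval -0.32 to 0.35). Npat, which encodes the S-phase coactivator of histone genes, differed from vehicle by 0.14 (-0.12 to 0.41) in MYCi975, 0.12 (-0.16 to 0.41) in TMP195 and 0.17 (-0.12 to 0.45) in the combination. Eri1, which encodes an exonuclease that trims the histone stem-loop, had a combination minus vehicle difference of -0.36 (-0.75 to 0.03). Casp8ap2, also of this list, differed from vehicle by -0.38 (-0.85 to 0.09) in MYCi975, -0.46 (-0.97 to 0.05) in TMP195 and -0.03 (-0.54 to 0.48) in the combination. Its interaction was 0.81 (95% interval 0.09 to 1.53, adjusted p = 0.911, limma). In the list as a whole the interaction was above 0 in 7 genes and below 0 in 11 (median -0.01). Without MYCi975 replicate 2 it was above 0 in 9 and below 0 in 9 (0.02).

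Histone chaperones, which carry histones to DNA, were mixed: of 25 tested genes 17 were higher in MYCi975 than in vehicle (median 0.04, and 18 with 0.06 without MYCi975 replicate 2) and 19 lower in the combination (-0.05), with 1 and 0 lower at an unadjusted p under 0.05 (1.49% and 1.35% of all genes). Supt16, a subunit of the FACT chaperone, differed between combination and vehicle by -0.27 (-0.57 to 0.04), and Hjurp, the chaperone of CENP-A, by 0.21 (-0.12 to 0.55). Of 18 tested deacetylase and acetyltransferase genes, 13 were higher in MYCi975 than in vehicle (0.04, and 12 with 0.04 without MYCi975 replicate 2) and 13 in the combination (0.08). Of these genes Hdac3, a class I deacetylase gene, stood at 7.98 ± 0.03 in vehicle and 8.21 ± 0.19 in the combination (SD, n = 4 and 3; difference 0.23, -0.05 to 0.51).

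Variant histone genes outside the rule had medians near 0 in the treated groups against vehicle. Of 9 tested, 5 were higher in MYCi975 than in vehicle (median 0.01), 2 in TMP195 (-0.07) and 3 in the combination (-0.04), none at an unadjusted p under 0.05. In the combination against MYCi975, 3 were higher and 6 lower (-0.09), with 1 higher at that level (3.14% of all genes). Without MYCi975 replicate 2 these were 3 and 6 (-0.08), with 0 at that level (1.96% of all genes). H3f3a and H3f3b, which both encode H3.3, had combination minus vehicle differences of -0.23 (95% interval -0.57 to 0.12) and -0.21 (-0.52 to 0.11). H2afz, which encodes H2A.Z, had one of 0.27 (-0.25 to 0.79), and Cenpa, the centromeric H3 variant gene, one of -0.11 (-0.43 to 0.20). The median of these 9 genes in MYCi975 against vehicle, 0.01, stood beside -0.19 for the 58 members, and without MYCi975 replicate 2 the medians were -0.07 and -0.11. The difference between the 2 lists was not tested.

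Promoters of the members held the CCAAT and TATA boxes and the octamer more often than promoters at large. RefSeq (GRCm38.p6) gave windows from 250 bases before to 50 after the start for 59 members, 60 windows in all, and for 32851 starts of all genes. The CCAAT box, searched as CCAAT on both strands, was in 83.3% of member windows and 37.4% of all, and in every window of the H2A, H2B and H3 genes but in 25% of those of H4. TATAAA on the sense strand was in 46.7% against 8.32%. The octamer ATTTGCAT on both strands was in 37.5% of H2A and of H2B windows, in none of H1, H3 or H4, and in 1.74% of all. Windows of H2A and H2B genes read away from each other overlap, by 233 to 279 bases in 7 pairs. A CCAAT box or octamer in such an overlap counts for both genes, so the H2A and H2B shares are not independent. The E-box CACGTG, the letters bound by MYC with its partner MAX, was in no member window and in 7.15% of all.

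The 250 bases before the start of Hist1h2bm (chr13:21721794-21722043, plus strand, GRCm38) are shown because they span the 235 bases between the models of Hist1h2bm and Hist1h2aj, which are read away from each other. The first 15 bases shown lie within the Hist1h2aj model. The capitals mark CCAAT on either strand, at positions -142, -81 and -55 from the start, and the octamer at -25.
Hist1h2bm: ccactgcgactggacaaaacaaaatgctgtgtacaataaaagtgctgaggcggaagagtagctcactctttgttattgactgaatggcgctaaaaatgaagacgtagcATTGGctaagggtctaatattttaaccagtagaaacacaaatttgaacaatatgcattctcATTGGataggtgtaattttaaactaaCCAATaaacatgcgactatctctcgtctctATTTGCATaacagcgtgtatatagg
Hist1h2bm, at 6.78 ± 0.17 in vehicle, 6.41 ± 0.40 in MYCi975, 6.67 ± 0.12 in TMP195 and 6.65 ± 0.48 in the combination (SD, n = 4, 4, 3 and 3), was never at the lowest value, also where Hist1h2aj was. Among 7 other such divergent H2A and H2B pairs, both of whose genes were tested and whose promoter windows overlap, the correlation over the 14 libraries had a median of 0.52 (0.25 to 0.72). All pairs of members of different types had a median of 0.38, and the difference was not tested.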

How the data were processed

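The deposited values are log2 expression after a variance-stabilising transformation by the authors, with 21152 genes as rows and 14 libraries as columns, per the file headers. Per the submitters' processing notes the tools include Salmon (no version) and the build is hg38, which is human while the gene identifiers are mouse, so the build is not settled. Libraries came from a stranded total RNA kit, per the labels' protocols. Symbols were found for 20264 IDs (95.8%), and 888 had none.

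A model with 1 mean per group was fitted with limma 3.58.1 (R 4.3.3, intensity trend, 10 residual degrees of freedom) to the 13711 genes with a mean more than 1 above the lowest value, two-sided, Benjamini-Hochberg, threshold 0.05, and tested on simulated data. Read depth is unknown, so no count model applies. Medians over members have no test. Members, lists and the naming rule were chosen with earlier results of these data known. The rule took Hist1h2aj, H1f0, per type the smallest p in combination against vehicle and the largest SD, and the 2 smallest p in each direction of every other comparison, plus set genes and 2 per list. Shared 31-base words were counted over all GENCODE M21 transcripts.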

Additional observations from a re-analysis of the deposited data

Results flagged for a closer look

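Among the named histone genes and 3 family measures, the groups of 4 libraries were examined for a single library far from the rest (46 group and measure pairs). Chance alone would mark about 1 in 20, and 1 was marked. Hist1h4d, an H4 gene with the largest SD of its type (0.39), stood at 6.47 in MYCi975 replicate 2, while the other 3 MYCi975 libraries lay between 7.37 and 7.41. The gap was 0.96 of the whole range, above Dixon's 95% critical value for 4 values. That library is the one with the highest Ptprc and the most genes at the lowest value, and the part of either in the Hist1h4d value was not tested.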

How the results depend on the processing

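No member was called in any comparison under any of the 137 alternatives to these counts, which were another filter or none, median centring, quantile normalisation, library weights, no trend, robust moderation, a fit of only the groups at issue, a replicate block, and each library left out. Nor was any other gene called under them, so these counts do not set the members apart. All 131 alternative medians stayed within 0.18 of the main ones, the SD of the library means within groups. That limit is larger than most of the medians, so it would also let those change sign. Many alternatives, such as leaving out a library of a group not compared, left the differences unchanged. The largest shift of a library under median centring was 0.069. With each library left out in turn, medians ran from -0.26 to -0.11 for MYCi975 against vehicle, -0.17 to -0.01 for TMP195, -0.09 to 0.05 for the combination, 0.06 to 0.25 for the combination against MYCi975, 0.02 to 0.19 against TMP195 and 0.17 to 0.38 for the interaction. The combination against vehicle changed sign, at 0.05 without vehicle replicate 3 or combination replicate 3.

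Whether replicate numbers pair the libraries was not settled. Deviations of same-numbered libraries correlated at -0.3 to 0.21 (median 0.04, 6 of 19 pairs over 0.1), and 6 of 14 libraries correlated best with their own number. How many would do so without pairing was not worked out. With the replicate block 0 members were called and the median was -0.19 for MYCi975 against vehicle and -0.06 for the combination, and Hist1h3h turned to -0.04. Hist1h2aj aside, 0 members were then lower at an unadjusted p under 0.05 in MYCi975 against vehicle (1.61% of all genes). In TMP195 against vehicle 3 were lower at that level (1.43%). Higher at that level were 1 in the combination against MYCi975 (3.93%) and 0 in the interaction (1.85%).

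For named genes in combination against vehicle, 437 of 456 alternatives kept the direction. Many of these alternatives could not change a difference of group means. Among them were leaving out a library of a group not compared, no trend and robust moderation. The share that kept the direction thus overstates how stable the differences were. With a library left out, the ranges that crossed 0 were -0.06 to 0.17 for H1f0, -0.42 to 0.05 for Hist1h1a, -0.38 to 0.04 for Hist1h1e, -0.29 to 0.01 for Hist1h2an, -0.09 to 0.30 for Hist1h2bf, -0.02 to 0.34 for Hist1h2bh, -0.37 to 0.09 for Hist1h2bk, -0.04 to 0.35 for Hist1h3h, -0.04 to 0.27 for Hist1h4b, -0.05 to 0.48 for Hist1h4d and -0.06 to 0.26 for Hist2h2bb. The cause was not tested. Depth is unknown, so what it limits cannot be given, and differences of genes near the lowest value are understated.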
